A study of Mus musculus with 24 samples.

Results

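The miRNAs made from the miR-219 and miR-338 precursors were followed in MiRNA-Seq of the neonatal mouse brain. The members were chosen by name: mmu-miR-219a-5p, mmu-miR-219a-2-3p, mmu-miR-338-3p, and mmu-miR-338-5p, given without the species prefix from here on. Of these 4 mature miRNAs, 3 were measured among 1531 mouse miRNAs, and miR-219a-5p is not analysed here. The animals were CD1 pups of both sexes at postnatal day 9, 4 with hypoxic-ischemic brain injury (HIBI, pups 1, 4, 5, and 7) and 4 sham controls (pups 2, 3, 6, and 8). In HIBI pups the right common carotid artery was cauterized and, after recovery with the dam, the pups spent 30 min in 8% oxygen. Sham pups had isoflurane anesthesia, bupivacaine, and neck dissection as HIBI pups did, but no ligation, and were kept in normoxia. The right cerebellum, striatum/thalamus, and cortex were taken 30 min later from each pup, which gave 24 libraries in 6 groups of 4. No group had hypoxia without ligation, so that in the cortex and striatum/thalamus the contributions of hypoxia and of ligation cannot be told apart.

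Oligodendrocytes are the myelin-forming glia of the central nervous system, and in the mouse brain myelination is under way from the cerebellum and brainstem forward during the first postnatal weeks. MiR-219 and miR-338 are miRNAs of the oligodendrocyte lineage that rise as precursors differentiate. Between them they are known to repress mRNAs that hold precursors in the immature state, among them those of Sox6, Hes5, and Pdgfra. A miRNA precursor is a hairpin, and either of its arms, 5p or 3p, can be kept as the mature miRNA. The seed, bases 2 to 8 of the mature strand, is the part that pairs with target mRNAs. Levels of miR-219a-2-3p are not levels of miR-219a-5p, the other arm, which is not analysed here. Whether miR-219a-2-3p represses the mRNAs named above was not tested.

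Mature sequences of measured arms of these loci are given from RefSeq (GRCm38.p6), 5′ to 3′, with the seed in capitals. The 5 arms shown each carry a seed of their own, and the sequence and seed of miR-219a-2-3p are not shown here. MiR-3065-5p is included because it comes from the opposite strand of the miR-338 hairpin.
miR-338-5p: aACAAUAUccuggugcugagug
miR-338-3p: uCCAGCAUcagugauuuuguug
miR-3065-5p: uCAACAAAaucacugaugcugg
miR-219a-1-3p: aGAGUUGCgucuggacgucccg
miR-219b-5p: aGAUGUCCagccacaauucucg

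None of these 5 seeds was shared with another mature entry of the same table. The 2 arms of miR-338 lie in 1 hairpin, Mir338, at chr11:120014765-120014862 on the minus strand, inside an intron of Aatk on the same strand (GENCODE M21). Its sequence is shown with both mature arms in capitals, since their ratio is measured further on.
Mir338: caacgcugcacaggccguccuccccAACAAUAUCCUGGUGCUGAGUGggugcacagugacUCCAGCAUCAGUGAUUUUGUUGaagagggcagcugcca
MiR-219a-2-3p is the 3p arm of the hairpin Mir219a-2 at chr2:29845631-29845727 on the minus strand. With miRNA genes left out, this hairpin lay in no annotated gene, and the nearest gene was Urm1 at 629 bases on the opposite strand. The miRNA gene Mir219b, at chr2:29845647-29845711 on the plus strand, lay within the same stretch. The related miR-219a-1-3p comes from Mir219a-1 at chr17:34024983-34025092, also on the minus strand, in an exon of the lincRNA Gm26940. On the opposite strand, 21 of the 22 bases of miR-338-3p were complementary to miR-3065-5p, and all 22 bases of miR-219b-5p lay opposite bases 60 to 81 of Mir219a-2, in the 3′ part of that hairpin. The strand setting of the counting and its rule for reads with several matches are not given in the sources used here, and their part in the counts was not tested.

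The library totals were between 1254185 and 3406624 mouse miRNA counts, and levels are given as CPM, counts scaled to a common library total, after trimmed mean (TMM) scaling of the 24 libraries. The most abundant member was miR-219a-2-3p with 181124 counts over all libraries, which was 0.336% of all counts and rank 42 of all miRNAs. MiR-338-5p followed with 34983 counts (0.0648%, rank 112). MiR-338-3p had 1164 counts (0.00216%, rank 353), with 7 to 171 counts in a library, so that its counting error was large. In the library with 7 counts the exact 95% Poisson interval was 2.81 to 14.4 counts, which covers counting error only. The mature strands are of nearly equal length, but small RNA libraries take up different sequences with unequal efficiency, so that levels of different miRNAs are levels of counts. The 3 members passed the minimum average of 10 CPM in every region, with miR-338-3p closest to it at 11.2 CPM ± 5.19 (SD, n = 8) in the striatum/thalamus.

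All 3 members were highest in the cerebellum. MiR-219a-2-3p was at 6219 CPM ± 1103 in the cerebellum, with 2528 ± 967 in the striatum/thalamus and 1584 ± 534 in cortex (SD, n = 8 pups each). Over the 8 pups, its lowest, median, and highest levels were 4754, 6280, and 8251 CPM in the cerebellum, 1040, 2656, and 4162 CPM in the striatum/thalamus, and 779, 1595, and 2528 CPM in the cortex. The cerebellar libraries overlapped with neither of the other regions, whereas the striatum/thalamus and cortex overlapped.

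MiR-338-5p, the arm of its hairpin with more counts, was at 964 CPM ± 126 in the cerebellum, with 558 ± 219 in the striatum/thalamus and 443 ± 57.1 in cortex (SD, n = 8 each). Its lowest, median, and highest levels were 787, 958, and 1144 CPM in the cerebellum, 343, 513, and 986 CPM in the striatum/thalamus, and 369, 439, and 519 CPM in the cortex. The cortex lay below every cerebellar library, and the striatum/thalamus of sham pup 6, at 986 CPM, reached into the cerebellar range.

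MiR-338-3p, the arm best known from oligodendrocytes, was at 38.6 CPM ± 12.8 in the cerebellum, with 11.2 ± 5.19 in the striatum/thalamus and 14.4 ± 4.02 in cortex (SD, n = 8 each). Its lowest, median, and highest levels were 22.6, 37.9, and 66.3 CPM in the cerebellum, 4.97, 10.05, and 18.1 CPM in the striatum/thalamus, and 8.37, 13.5, and 19.8 CPM in the cortex. Again no cerebellar library overlapped with another region, and the other regions overlapped with each other.

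**Figure D1:**
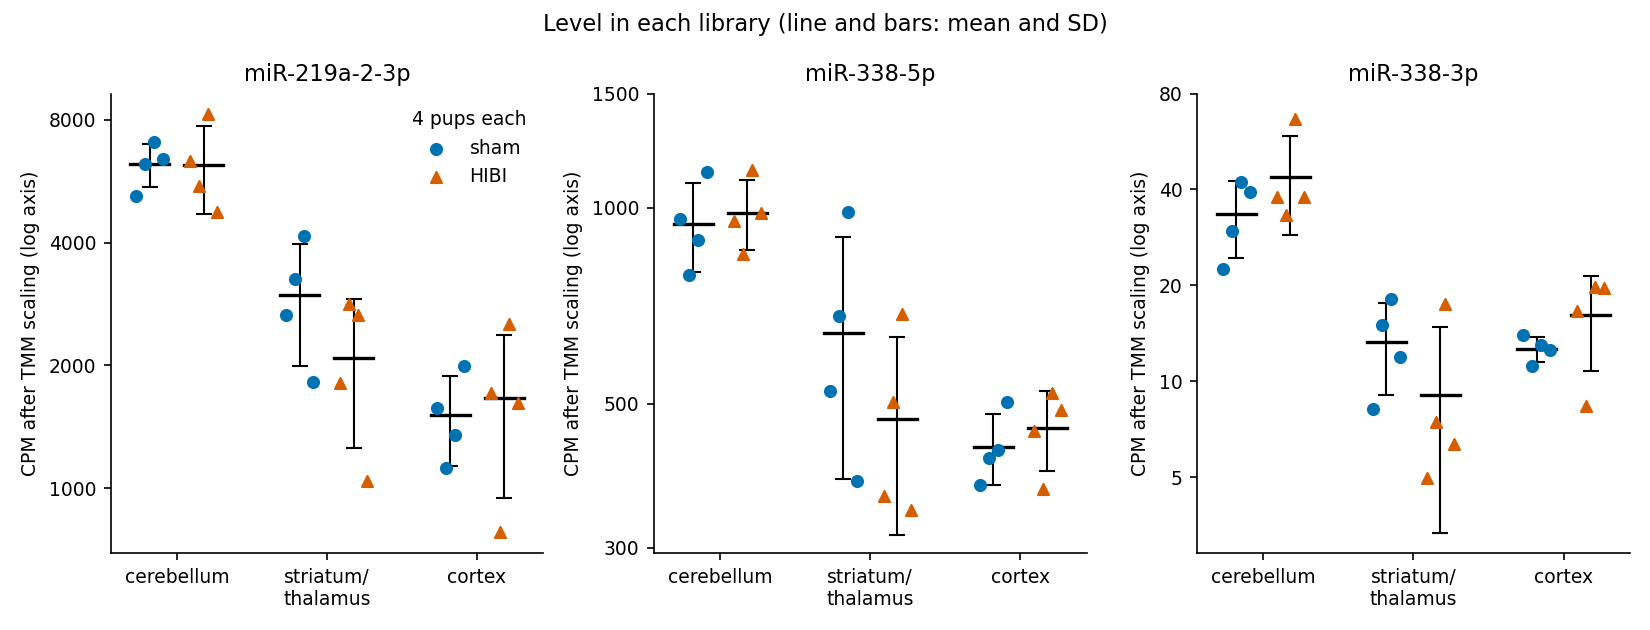
Levels of miR-219a-2-3p, miR-338-5p, and miR-338-3p in the 24 libraries, by region (x axis) in CPM after TMM scaling (y axis, log scale). Circles are sham and triangles HIBI pups, and lines and bars give the mean and SD of 4 pups. The cerebellar libraries of miR-219a-2-3p (4754 to 8251 CPM) and of miR-338-3p (22.6 to 66.3 CPM) sit above all forebrain libraries.

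The regions were compared in 1 edgeR model of the 24 libraries, averaged over HIBI and sham. This model had no term for the pup and took the libraries of 1 pup as independent. Compared with the cerebellum, all 3 members were lower in the striatum/thalamus. The log2 fold change was -1.32 for miR-219a-2-3p (SE 0.223, adjusted p = 1.26e-05), -1.78 for miR-338-3p (SE 0.268, adjusted p = 2.47e-06), and -0.80 for miR-338-5p (SE 0.171, adjusted p = 0.000204; edgeR quasi-likelihood test, Benjamini-Hochberg adjusted). In this contrast 304 of 435 miRNAs tested were called at an adjusted p-value under 0.05 (69.9%), and 147 of them were lower in the striatum/thalamus (33.8%), so that a call between these regions was common. The median log2 fold change was -1.32 over the 3 members and 0.01 over all miRNAs tested. In the same pup, the cerebellum had 1.69 to 4.57 times as much miR-219a-2-3p and 1.96 to 7.63 times as much miR-338-3p as the striatum/thalamus, higher in 8 of 8 pups for both. For miR-338-5p it was higher in 7 of 8 pups, with sham pup 6 at 0.906 times. The exact sign-flip permutation test over the 8 pups gave p = 0.0078 for miR-219a-2-3p and miR-338-3p, the smallest it can give, and p = 0.0156 for miR-338-5p (two-sided).

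Compared with the cerebellum, the members were also lower in the cortex, and here miR-219a-2-3p differed by the largest fold of the 3. Its log2 fold change was -1.97 (SE 0.227, adjusted p = 7.36e-08), against -1.42 for miR-338-3p (SE 0.260, adjusted p = 5.53e-05) and -1.12 for miR-338-5p (SE 0.172, adjusted p = 5.10e-06; edgeR). Of 435 miRNAs tested, 282 were called (64.8%) and 148 were lower in the cortex (34%). By fold change miR-219a-2-3p ranked 23 from the lowest, miR-338-3p ranked 39, and miR-338-5p ranked 67. Within a pup, the cerebellum had 2.94 to 7.07 times as much miR-219a-2-3p as the cortex, 1.62 to 3.98 times as much miR-338-3p, and 1.91 to 2.56 times as much miR-338-5p. Each was higher in the cerebellum of 8 of 8 pups (exact sign-flip permutation test, p = 0.0078, two-sided).

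Between the striatum/thalamus and the cortex the members did not move alike. MiR-219a-2-3p was higher in the striatum/thalamus, with a log2 fold change of 0.65 (SE 0.220, adjusted p = 0.0157; edgeR) and higher levels in 6 of 8 pups. The exact sign-flip permutation test over pups gave p = 0.102. MiR-338-5p had a log2 fold change of 0.32 (SE 0.170, adjusted p = 0.119) and miR-338-3p one of -0.37 (SE 0.268, adjusted p = 0.256), and neither passed the test. The 95% intervals of the log2 fold change were -0.03 to 0.67 for miR-338-5p and -0.92 to 0.19 for miR-338-3p. Of 435 miRNAs, 234 were called (53.8%) and 125 were higher in the striatum/thalamus (28.7%). The call of miR-219a-2-3p was lost without sham pup 3 (log2 0.59, adjusted p = 0.0589), HIBI pup 4 (0.45, adjusted p = 0.0841), or sham pup 6 (0.53, adjusted p = 0.0743), while that of miR-338-5p appeared without sham pup 8 (0.48, adjusted p = 0.0260).

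**Figure D2:**
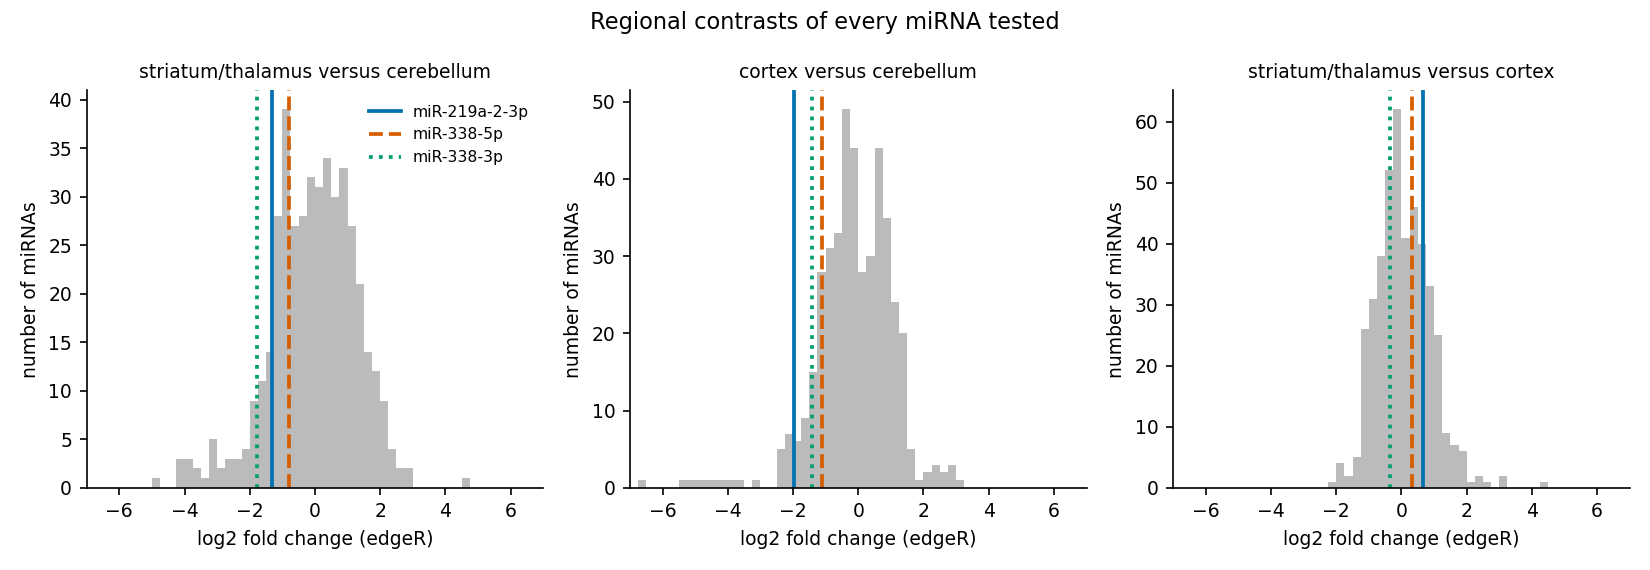
Distribution of the log2 fold change (x axis) of 435 miRNAs (y axis, number of miRNAs) in each regional contrast from edgeR, with the 3 members as vertical lines. The members lie left of the centre in both contrasts with the cerebellum, at -1.32, -0.80, and -1.78 and at -1.97, -1.12, and -1.42 for miR-219a-2-3p, miR-338-5p, and miR-338-3p.

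These are tissues with many cell types, and fewer cells of a type and less RNA per cell cannot be told apart. Other miRNAs moved between the same regions. The hindbrain miRNAs of the Hox clusters (miR-10a-5p, miR-10b-5p, miR-196a-5p, and miR-196b-5p, 4 of 4 with a row) summed to 476 to 1835 CPM in the cerebellum, 117 to 268 CPM in the striatum/thalamus, and 37.3 to 112 CPM in the cortex. The muscle miRNAs (miR-206-3p, miR-1a-3p, and miR-133a-3p, 3 of 3 with a row) summed to 345 to 651 CPM in the cerebellum and 28.4 to 141 CPM in the other regions. Of these, miR-206-3p alone had means of 353, 29.6, and 8.26 CPM in the cerebellum, striatum/thalamus, and cortex. Whether muscle tissue was in the samples was not tested. The neuronal miRNAs miR-124-3p, miR-128-3p, and miR-9-5p summed to 102774 to 190881 CPM in the cerebellum, 78900 to 152386 CPM in the striatum/thalamus, and 179824 to 223731 CPM in the cortex. Some markers of other cell types were also lower in the forebrain regions. Of the choroid plexus and ciliated cell markers, miR-204-5p had log2 fold changes of -0.83 in the striatum/thalamus (adjusted p = 0.00265) and -0.70 in the cortex (adjusted p = 0.0103) against the cerebellum, and miR-34c-5p had -0.78 (adjusted p = 0.0184) and -1.40 (adjusted p = 0.000201; edgeR). MiR-449a-5p was called lower in the cortex, at -1.01 (adjusted p = 0.0293), and had -0.52 in the striatum/thalamus (adjusted p = 0.245; edgeR). In the striatum/thalamus against the cerebellum the endothelial miR-126a-3p (-0.996), the erythrocyte miR-451a (-1.05), the mural miR-143-3p (-0.81), and the myeloid miR-223-3p (-0.75) were called lower, with adjusted p-values from 0.000156 to 0.0130 (edgeR). None of these 4 was called in the cortex against the cerebellum, at log2 fold changes of -0.08, -0.29, -0.25, and -0.30 (adjusted p from 0.310 to 0.724). The other mural marker, miR-145a-5p, was not called in the striatum/thalamus (0.05, adjusted p = 0.795) or the cortex (-0.21, adjusted p = 0.240) against the cerebellum (edgeR). No marker of the muscle, neuronal, endothelial, or mural lists was at 0 in any group, and 2 of the 4 hindbrain miRNAs, miR-196a-5p and miR-196b-5p, had no count in the cortex of either group. In 1 or more groups miR-142a-3p and miR-142a-5p of the 3 myeloid markers, miR-144-3p of the 3 erythrocyte markers, and miR-34b-5p of the 4 choroid markers had no count. The part of these tissue differences in the regional levels of the members was not tested.

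MiR-219b-5p and miR-219a-1-3p, related entries of the miR-219 loci, had the regional order of miR-219a-2-3p. Because miR-219b-5p lies opposite the 3′ part of Mir219a-2, whether it shares reads with miR-219a-2-3p was not tested. The former, annotated on the strand opposite Mir219a-2, was at 55.5 CPM ± 15.2 in the cerebellum, with 21.0 ± 11.2 in the striatum/thalamus and 11.1 ± 4.96 in cortex (SD, n = 8 each). The latter, from the other miR-219a precursor, was at 31.4 ± 8.74, 14.8 ± 5.65, and 7.66 ± 3.55 CPM in these regions. Both were lower in the striatum/thalamus than in the cerebellum, with log2 fold changes of -1.40 (SE 0.290, adjusted p = 0.000164) and -1.09 (SE 0.283, adjusted p = 0.00146; edgeR). Both were also lower in the cortex than in the cerebellum, at -2.33 (SE 0.299, adjusted p = 4.07e-07) and -2.03 (SE 0.292, adjusted p = 2.20e-06; edgeR). Of the 7 related entries listed, 6 had a row, and the other 4 of these had a mean under 10 CPM over the 24 libraries. MiR-3065-3p had 416 counts in all, miR-219c-5p 156, miR-3065-5p 29, and miR-219c-3p 14.

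The ratio of the arms of miR-338 was compared within each library, where scaling between libraries does not enter. MiR-338-5p exceeded miR-338-3p in counts in all 24 libraries, by 17.2 to 67.8 times. The geometric mean of the ratio was 25.7 in the cerebellum, with 50.3 in the striatum/thalamus and 31.3 in cortex (n = 8 each). MiR-338-3p over miR-338-5p was therefore lower in the striatum/thalamus than in the cerebellum, by 0.97 on the log2 scale as a mean over pups, with an exact sign-flip p = 0.0078, the smallest the design allows, and an adjusted p = 0.0625 over the 24 ratio tests. The difference from the cortex was -0.69 on the log2 scale (exact p = 0.0234, adjusted p = 0.0804). After this adjustment no ratio test passed 0.05.

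MiR-219a-2-3p exceeded miR-338-5p by a geometric mean of 6.41 times in the cerebellum, with 4.48 in the striatum/thalamus and 3.41 in cortex (n = 8 each). The log2 difference from the cerebellum was -0.52 in the striatum/thalamus and -0.91 in cortex (exact sign-flip p = 0.0078 and adjusted p = 0.0625 for both). MiR-219a-2-3p over miR-338-3p had geometric means of 165 (cerebellum), 225 (striatum/thalamus), and 107 (cortex). The log2 difference from the cerebellum was 0.45 in the striatum/thalamus (exact p = 0.0234, adjusted p = 0.0804) and -0.63 in the cortex (exact p = 0.0156, adjusted p = 0.0750), and the striatum/thalamus exceeded the cortex by 1.08 (exact p = 0.0156, adjusted p = 0.0750). MiR-219a-2-3p over miR-219a-1-3p, which sets the 3p arms of the 2 miR-219a precursors side by side, was at a geometric mean of 201 in the cerebellum, with 165 in the striatum/thalamus and 212 in cortex. This ratio differed between regions by -0.36 to 0.07 on the log2 scale, with exact sign-flip p-values from 0.398 to 0.789, and ranged from 66.1 to 468 over single libraries.

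**Figure D3:**
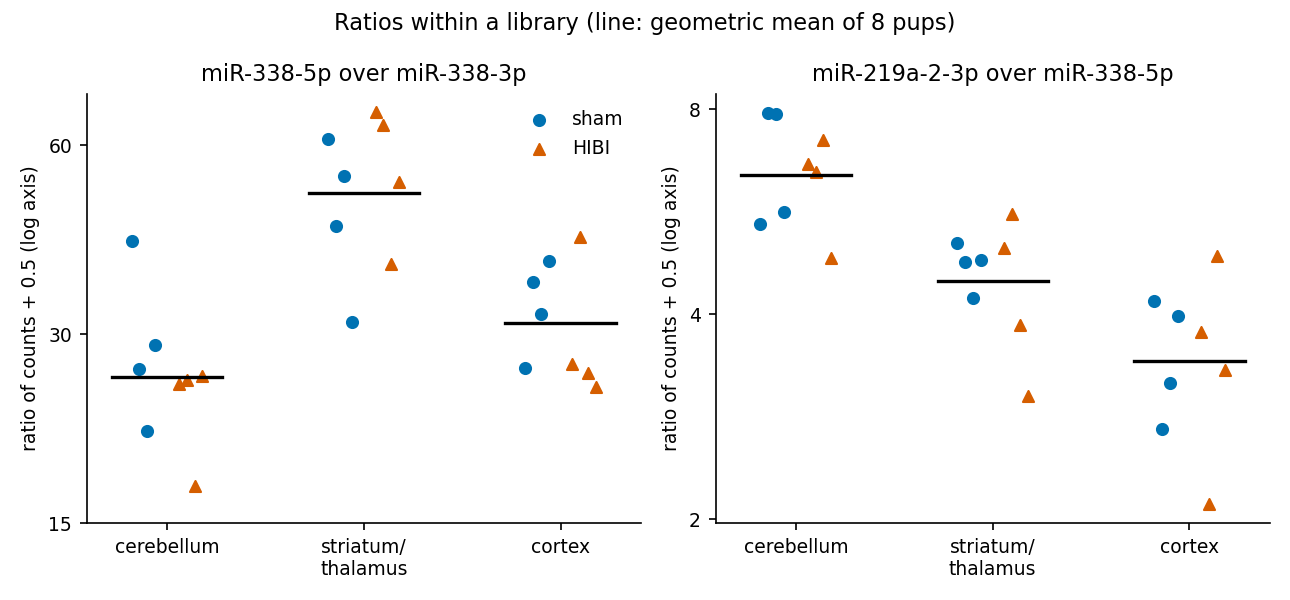
Ratios of counts (y axis, log scale) within each library by region (x axis), miR-338-5p over miR-338-3p on the left and miR-219a-2-3p over miR-338-5p on the right. Circles are sham and triangles HIBI pups, and lines are geometric means of 8 pups. The arm ratio of miR-338 is highest in the striatum/thalamus (50.3) and the other ratio is highest in the cerebellum (6.41).

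HIBI was then compared with sham in each region, 30 min after hypoxia. In the cerebellum, which lies outside the territory of the ligated artery, miR-219a-2-3p was at 5213, 6219, 7041, and 6421 CPM in sham pups 2, 3, 6, and 8, and at 6342, 5511, 8251, and 4754 CPM in HIBI pups 1, 4, 5, and 7. The HIBI pups held both the highest and the lowest level. MiR-338-5p was at 962, 787, 893, and 1136 CPM in sham pups and at 955, 850, 1144, and 983 CPM in HIBI pups, in the same order of pups. MiR-338-3p was at 22.6, 29.5, 42.2, and 39.2 CPM in sham pups and at 37.9, 33.3, 66.3, and 38.0 CPM in HIBI pups. The groups overlapped for each member, and pup 5 had the highest level of all 3.

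None of the members was called in the cerebellum, where the criteria (over 1.5-fold with p under 0.05 before adjustment) called 34 of 434 miRNAs (7.83%). The log2 fold change was 0.02 for miR-219a-2-3p (95% interval -0.47 to 0.50), 0.09 for miR-338-5p (-0.32 to 0.50), and 0.42 for miR-338-3p (-0.30 to 1.13), with adjusted p-values of 0.989, 0.795, and 0.533 (edgeR). The exact permutation p-values were 0.943, 0.714, and 0.314 (two-sided, 4 against 4, smallest possible 0.0286). The value of miR-219a-2-3p changed sign without the CPM minimum (-0.0198) and ranged from -0.14 to 0.13 when single pups were left out.

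In the striatum/thalamus all 3 members had lower means in HIBI pups, and none was called. MiR-219a-2-3p was at 2660, 3257, 4162, and 1825 CPM in sham pups 2, 3, 6, and 8, and at 1806, 2823, 2651, and 1040 CPM in HIBI pups 1, 4, 5, and 7. The 2 highest levels were in sham pups and the 2 lowest in HIBI pups, with overlap between. MiR-338-5p was at 523, 682, 986, and 380 CPM in sham pups and at 361, 503, 687, and 343 CPM in HIBI pups. MiR-338-3p was at 8.21, 15.05, 18.1, and 11.9 CPM in sham pups, from 14, 36, 38, and 24 counts, and at 4.97, 7.45, 17.5, and 6.33 CPM in HIBI pups, from 7, 11, 36, and 15 counts. For miR-338-3p, 3 HIBI pups lay below all sham pups and pup 5 lay among the sham pups.

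The log2 fold change of HIBI over sham here was -0.61 for miR-219a-2-3p (SE 0.328), -0.53 for miR-338-5p (SE 0.322), and -0.62 for miR-338-3p (SE 0.495), each with an adjusted p = 0.980 (edgeR). The 95% intervals were -1.34 to 0.11, -1.24 to 0.18, and -1.71 to 0.47, so that the data excluded neither equal levels nor a fall by more than the fold of 1.5. The criteria called 12 of 436 miRNAs (2.75%), 1 of them lower. The exact permutation p-values were 0.200, 0.257, and 0.200 (two-sided). The median log2 fold change was -0.61 over the members and -0.03 over all miRNAs tested. Without HIBI pup 5, miR-338-3p had a log2 fold change of -1.19 and miR-338-5p one of -0.79, which met the criteria, with an adjusted p = 0.389 for both (edgeR). In that setting 38 of 427 miRNAs met them (8.90%), 17 higher and 21 lower. With sham pup 6 left out, the values moved the other way, to -0.32 for miR-219a-2-3p and -0.16 for miR-338-5p. Without the CPM minimum miR-219a-2-3p met the criteria, at -0.64 (edgeR, adjusted p = 0.630), as did 54 of 1265 miRNAs (4.27%), 39 higher and 15 lower. Neuronal markers summed to 88530 to 152386 CPM in these sham libraries and 78900 to 122693 CPM in the HIBI libraries, and both endothelial markers, miR-126a-3p and miR-126a-5p, to 1237 to 3126 and 974 to 2166 CPM. Erythrocyte markers summed to 59.8 to 358 CPM in sham and 65.3 to 130 CPM in HIBI libraries, muscle markers to 52.8 to 141 and 39.3 to 85.5 CPM, and hindbrain markers to 128 to 268 and 117 to 184 CPM. Choroid markers summed to 1644 to 2419 and 1497 to 4184 CPM, mural markers to 1783 to 2441 and 1757 to 3851 CPM, and myeloid markers to 10.6 to 27.2 and 11.4 to 30.8 CPM. The sham and HIBI ranges overlapped for all 8 lists, and the median sum was lower in HIBI for the neuronal, endothelial, erythrocyte, muscle, and hindbrain lists and higher for the others. No tested marker of these lists was called here. Their part in the values of the members was not tested.

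In the cortex, miR-219a-2-3p was at 1571, 1120, 1346, and 1997 CPM in sham pups and at 1714, 779, 2528, and 1618 CPM in HIBI pups, again in the order 2, 3, 6, 8 and 1, 4, 5, 7. MiR-338-5p was at 375, 412, 425, and 502 CPM in sham pups and at 454, 369, 519, and 489 CPM in HIBI pups. MiR-338-3p was at 13.9, 11.2, 12.99, and 12.6 CPM in sham pups and at 16.6, 8.37, 19.8, and 19.6 CPM in HIBI pups. HIBI pup 4 had the lowest and HIBI pup 5 the highest cortical level of each member, so that the HIBI range held the whole sham range. The log2 fold change was 0.12 for miR-219a-2-3p (95% interval -0.51 to 0.75), 0.09 for miR-338-5p (-0.23 to 0.41), and 0.34 for miR-338-3p (-0.34 to 1.02), with adjusted p-values of 0.989, 0.976, and 0.953 (edgeR). None was called, with 14 of 410 miRNAs called (3.41%), and the exact permutation p-values were 0.914, 0.514, and 0.400. Leaving out single pups moved miR-219a-2-3p between -0.16 and 0.34.

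**Figure D4:**
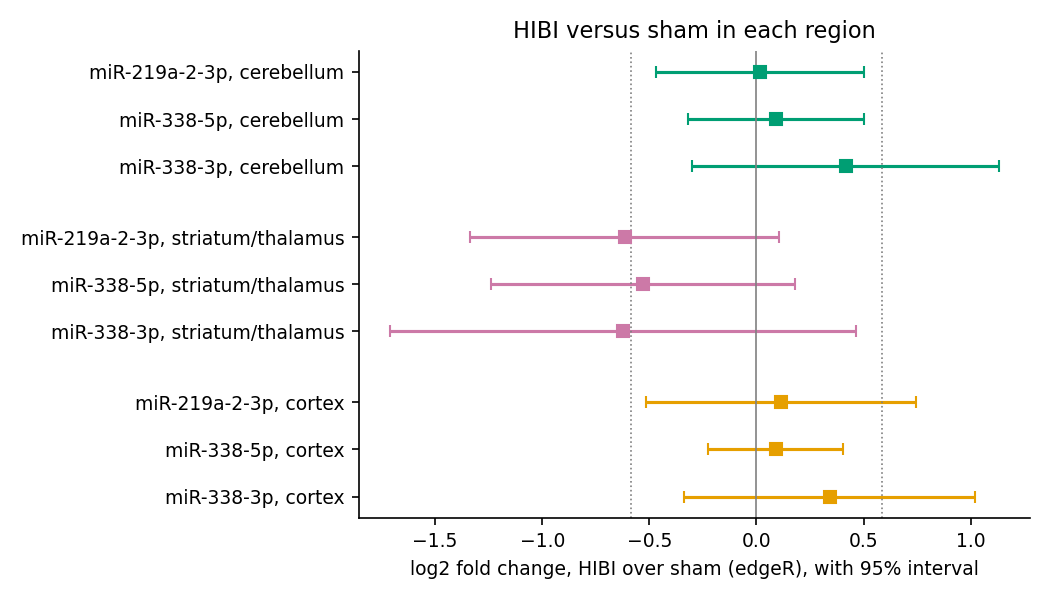
The log2 fold change of HIBI over sham (x axis) with its 95% interval from edgeR for each member in each region (y axis), 4 against 4 pups. Dotted lines mark a fold of 1.5. Every interval holds 0, and the striatum/thalamus has the lowest values (-0.61, -0.53, and -0.62).

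Whether the response to HIBI differed between regions was tested in the model of 24 libraries. The mean log2 fold change of both forebrain regions minus the cerebellar one was -0.19 for miR-219a-2-3p (SE 0.380, adjusted p = 0.806), -0.23 for miR-338-5p (SE 0.293, adjusted p = 0.693), and -0.49 for miR-338-3p (SE 0.445, adjusted p = 0.606; edgeR). No miRNA of 435 was called in this test (0%), with 70 at an unadjusted p-value under 0.05, and DESeq2 called none either. The effect in the striatum/thalamus minus that in the cortex was -0.66 (SE 0.440), -0.54 (SE 0.340), and -0.89 (SE 0.536), with an adjusted p = 0.991 for each, a contrast chosen after seeing the data. Here too edgeR and DESeq2 called no miRNA (0%), with 7 of 435 at an unadjusted p-value under 0.05 in edgeR. The 95% intervals of this difference were -1.56 to 0.25, -1.24 to 0.16, and -1.999 to 0.21, so each interval held 0. Leaving out sham pup 8 moved the difference to -1.08 for miR-219a-2-3p and -0.90 for miR-338-5p, and leaving out sham pup 6 moved it to -0.41 and -0.26. MiR-219a-2-3p was also at -1.08 without HIBI pup 4 and at -0.44 without HIBI pup 7. MiR-338-3p ranged from -1.32 to -0.63, and no member was called without any 1 pup.

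The arm and partner ratios were also compared between HIBI and sham. MiR-338-3p over miR-338-5p differed by 0.32 (cerebellum), -0.24 (striatum/thalamus), and 0.18 (cortex) on the log2 scale, with exact permutation p-values of 0.314, 0.429, and 0.429. MiR-219a-2-3p over miR-338-5p differed by -0.09, -0.15, and -0.04 (exact p = 0.714, 0.571, and 0.857). MiR-219a-2-3p over miR-338-3p differed by -0.40, 0.09, and -0.22 (exact p = 0.114, 0.800, and 0.371), and miR-219a-2-3p over miR-219a-1-3p by 0.43, -0.84, and 0.05 (exact p = 0.400, 0.257, and 0.886). The adjusted p-values were between 0.305 and 0.886, and the HIBI and sham ratios overlapped in every region.

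The members varied between pups of the same region. In the striatum/thalamus miR-219a-2-3p and miR-338-5p were ordered nearly alike, with Pearson r = 0.892 (exact permutation p = 0.0028, adjusted p = 0.0252) and Spearman rho = 0.833 (exact p = 0.0154, adjusted p = 0.0461) over 8 pups. Without pups 6 and 7, the farthest from the median, r was 0.893. In the cortex r was 0.813 (exact p = 0.0111, adjusted p = 0.0351) and rho 0.905 (exact p = 0.00456, adjusted p = 0.0205), and r was 0.591 without pups 4 and 5, so that this relation rests in part on them. In the cerebellum r was 0.337 (exact p = 0.418, adjusted p = 0.418) and rho 0.262 (exact p = 0.536). Adjusted values are over the 9 relations of 3 pairs in 3 regions. With the injury group means removed, r was 0.869, 0.830, and 0.352 in the striatum/thalamus, cortex, and cerebellum.

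**Figure D5:**
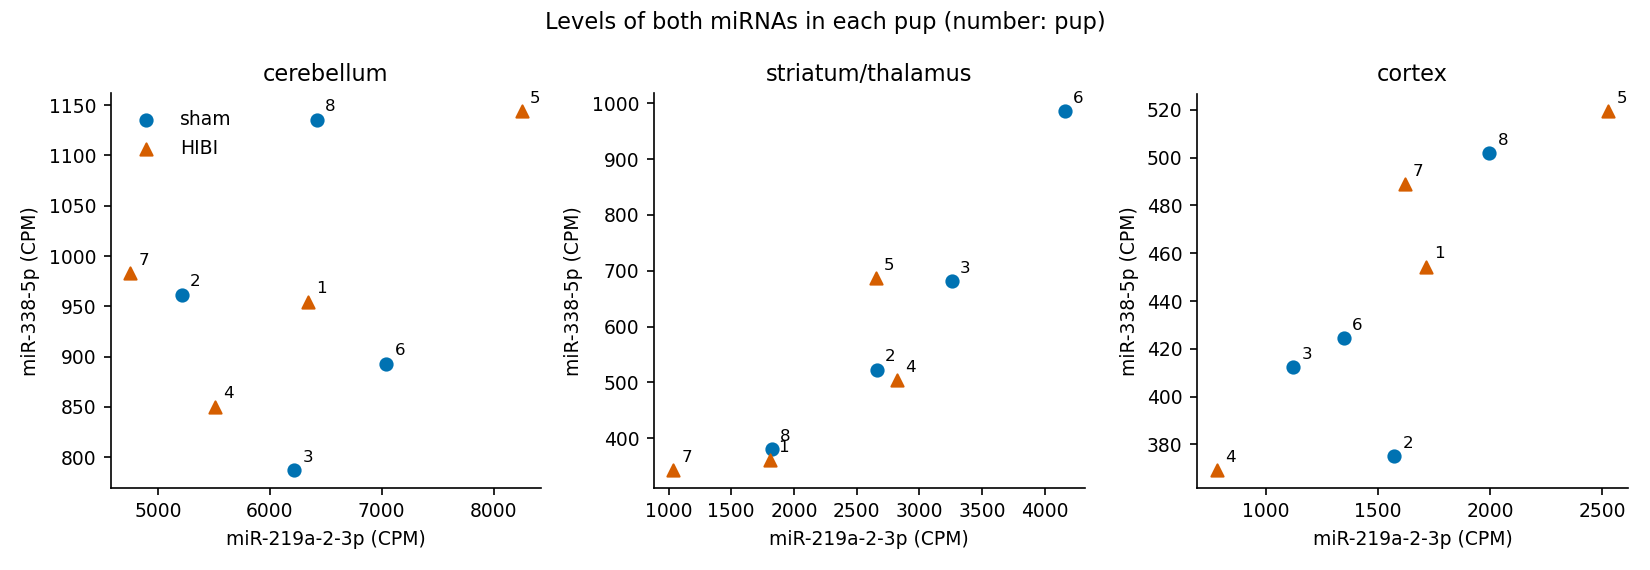
MiR-219a-2-3p (x axis) against miR-338-5p (y axis) in CPM, 1 panel for each region, with each point a pup and its number. Circles are sham and triangles HIBI. The points rise together in the striatum/thalamus (r = 0.892) and cortex (r = 0.813) and less so in the cerebellum (r = 0.337).

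The arms of miR-338 had r = 0.823 (exact p = 0.0156, adjusted p = 0.0351) and rho = 0.905 (exact p = 0.00456, adjusted p = 0.0205) in the striatum/thalamus. Without pups 1 and 6, r was 0.709. In the cortex r was 0.724 (adjusted p = 0.0657) and in the cerebellum 0.568 (adjusted p = 0.148), from exact permutations. MiR-219a-2-3p and miR-338-3p had r = 0.734 in the cerebellum, with 0.661 in the striatum/thalamus and 0.828 in cortex, with exact permutation adjusted p-values of 0.0657, 0.0891, and 0.0351. The cortical value was 0.431 without pups 4 and 5, and rho was 0.738 there (exact adjusted p = 0.0825). All values of a library share its depth and scaling.

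Over the 24 libraries, which come from 8 pups and are not independent points, the pattern of miR-219a-2-3p was most like that of miR-338-5p among 435 miRNAs (Pearson r = 0.931 of log2 CPM, and 0.742 with the 6 group means removed). The next were miR-219b-5p (r = 0.919), miR-206-3p (0.887), and miR-10b-5p (0.880). For miR-338-5p the most alike after miR-219a-2-3p were miR-219b-5p (0.874), miR-10b-5p (0.870), and miR-206-3p (0.849). With group means removed, miR-206-3p and miR-10b-5p had r = 0.184 and 0.302 with miR-219a-2-3p, whereas miR-219b-5p had 0.708. MiR-338-3p was most like let-7a-1-3p (0.897), miR-25-3p (0.873), and miR-106b-5p (0.872), and had r = 0.854 with its own 5p arm. With group means removed, miR-338-3p had r = 0.755 with let-7a-1-3p, 0.485 with miR-25-3p, and 0.513 with miR-106b-5p. It then had 0.702 with its 5p arm and 0.680 with miR-219a-2-3p. These correlations are a description of the libraries, and that of miR-219b-5p with miR-219a-2-3p is between entries on opposite strands of 1 hairpin locus.

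Lists of other miRNAs of the oligodendrocyte lineage were set beside the members. Of 5 miRNAs known from differentiation, 4 had a row and 3 were tested, and none was called in HIBI against sham in any region. MiR-138-5p, which acts in early oligodendrocyte differentiation, was higher in the cortex than in the cerebellum by 0.97 on the log2 scale (SE 0.164, adjusted p = 1.95e-05), and miR-23a-3p, which represses lamin B1, by 0.40 (SE 0.143, adjusted p = 0.0165; edgeR). MiR-146a-5p differed by 0.17 (SE 0.184, adjusted p = 0.419). None of the 3 was called between the striatum/thalamus and cerebellum, at log2 fold changes of 0.00, -0.20, and -0.07 for miR-138-5p, miR-23a-3p, and miR-146a-5p. In the striatum/thalamus against the cortex, miR-138-5p (-0.97, adjusted p = 3.64e-05) and miR-23a-3p (-0.60, adjusted p = 0.00110) were called lower (edgeR). MiR-146a-5p was at -0.24 there (edgeR, adjusted p = 0.274). Over all miRNAs tested, 64.8%, 69.9%, and 53.8% were called in these 3 contrasts, in the order given.

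Of 8 miRNAs known from oligodendrocyte precursors or from holding back differentiation, 5 were lower and 1 higher in the striatum/thalamus than in the cerebellum, where 33.8% of all miRNAs tested were lower and 36.1% higher. The median log2 fold change was -1.06 over the list and 0.01 over all. In the cortex against the cerebellum 4 were lower and 1 was higher (median -0.47), beside 34% lower and 30.8% higher over all (median -0.16). In the striatum/thalamus against the cortex 6 were lower and 1 was higher (median -0.86), beside 25.1% lower and 28.7% higher over all (median -0.02). The list holds miR-9-5p, miR-17-5p, miR-19b-3p, miR-27a-3p, miR-125a-3p, miR-145a-5p, miR-199a-5p, and miR-212-3p. It overlaps other lists, since miR-9-5p is also a neuronal and miR-145a-5p also a mural marker, and miR-9-5p was among the lower miRNAs in the striatum/thalamus against both other regions (-1.24 and -0.91). MiR-17-5p, of the cluster that drives precursor proliferation, was lower in both forebrain regions than in the cerebellum. Its log2 fold change was -2.54 in the striatum/thalamus (SE 0.221, adjusted p = 5.99e-10) and -1.58 in the cortex (SE 0.212, adjusted p = 7.80e-07, edgeR). MiR-19b-3p of the same cluster had -3.37 (SE 0.393, adjusted p = 5.86e-08) and -1.36 (SE 0.337, adjusted p = 0.00124, edgeR) in the same contrasts with the cerebellum. MiR-212-3p was higher than in the cerebellum, by 0.97 in the striatum/thalamus (SE 0.200, adjusted p = 0.000158) and 1.48 in the cortex (SE 0.200, adjusted p = 8.40e-07, edgeR). None of the precursor miRNAs was called in HIBI against sham in any region, with 7 tested in the striatum/thalamus and 8 in each of the other regions.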

How the data were processed

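MiRNA-Seq libraries from 24 tissue samples were made from total RNA with the NEXTFLEX Small RNA Kit and sequenced on the NextSeq 550. The authors aligned reads to mature mouse miRNAs of miRBase with bowtie2 and deposited raw counts per miRNA and library for each region. Versions, the miRBase release, and the strand and multiple-match settings are not given in the sources used here. The same tables hold the authors' edgeR results, deposited as log2 values (fold change and mean CPM) and as a p-value with its false discovery rate, none of which was used. The 20 castor bean entries (0.000156% of counts) were left out. Totals were 1254185 to 3406624, and a level near 10 CPM rests on few counts. No replicate pair agreed within sampling noise. Each library is 1 region of 1 pup, and p-values of HIBI against sham within a region measure the spread between pups. The edgeR p-values of regions and interactions come from 24 libraries that share 1 estimate of the spread. They take the libraries of 1 pup as independent.

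Tests were run with edgeR 4.0.16 and DESeq2 1.42.0 under R 4.3.3. Per region, miRNAs averaging above 10 CPM were TMM scaled and tested by the quasi-likelihood test, and a call needed a fold above 1.5 and an unadjusted p under 0.05, the study's criteria. Regions and interactions were tested in 1 model of 6 group means, with a call at a Benjamini-Hochberg adjusted p under 0.05. Two-sided exact permutation tests used log2(CPM + 1), 70 arrangements of 4 against 4 pups and 256 sign flips over 8 pups. Ratios used counts + 0.5. The members and lists were chosen with earlier results of these data known. The text names the listed members, the related entries, the lists, and the 3 miRNAs most like each member. The ratio over miR-219a-5p could not be formed, and ratios over miR-338-5p and miR-219a-1-3p were chosen after seeing the data, which gave 24 ratio tests and 9 correlations. The 3 regions of a pup come from the same animal, so the pup pairs the regional contrasts. The main edgeR model had no pup term, and the pairing entered only the sign-flip tests and the fit with the pup as a block. The median correlation of a pup's deviations over 435 miRNAs was 0.160 to 0.270 between regions. Alternatives were other scalings, no minimum, DESeq2, the pup as a block, sham libraries only, a pseudocount of 1, and leaving out each pup.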

Additional observations from a re-analysis of the deposited data

Results flagged for a closer look

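Within groups of 4, 42 sets of values were examined for a library far from the others, and 4 were found by Dixon's test, which divides the gap to the nearest value by the range, where chance flags about 1 in 20. MiR-338-3p in the HIBI cerebellum had a gap of 0.859 of the range, with pup 5 at 66.3 CPM against 33.3 to 38.0 CPM in the others. Without pup 5 its HIBI to sham log2 fold change in the cerebellum was 0.15 (edgeR, adjusted p = 0.890) in place of 0.42. MiR-338-3p over miR-338-5p in the HIBI cerebellum had a gap of 0.923 of the log2 range, with pup 5 highest at 0.0581 against 0.0388 to 0.0401. The same arm ratio in the HIBI cortex had one of 0.849, with pup 4 lowest at 0.0233 against 0.0372 to 0.0404. MiR-219a-2-3p over miR-219a-1-3p in the HIBI cortex had one of 0.845, again with pup 4 lowest, at 117 against 247 to 284. The miR-338-3p values of pup 4 in the cortex rest on 17 counts and the miR-219a-1-3p values on 13 counts.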

How the results depend on the processing

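With DESeq2 size factors, library size only, the DESeq2 test, a pseudocount of 1, and the replicate block, every value of a member, ratio, or number of members called that was recomputed kept its direction and side of the threshold. With the replicate block, miR-219a-2-3p was at -1.33 in the striatum/thalamus against the cerebellum, at -1.97 in the cortex against the cerebellum, and at 0.64 between the forebrain regions. Library size only moved the median of all miRNAs for HIBI in the cerebellum from 0.11 to 0.27 and miR-219a-2-3p to 0.17, and calls from 16 higher and 18 lower to 41 and 10. Without a CPM minimum, miR-219a-2-3p reversed to -0.0198 for HIBI in the cerebellum and met the criteria at -0.64 in the striatum/thalamus, which made 1 member called there. Calls over all miRNAs were then 106 of 1315 (8.06%) against 34 of 434 (7.83%) in the cerebellum, 54 of 1265 (4.27%) against 12 of 436 (2.75%) in the striatum/thalamus, 86 of 1290 (6.67%) against 14 of 410 (3.41%) in the cortex, and 10 of 1531 against 0 of 435 in the interaction. DESeq2 called 19 in the striatum/thalamus. In sham libraries only, miR-338-3p reversed to 0.0804 in the striatum/thalamus against the cortex. Leaving out each pup in turn gave, for HIBI against sham, -0.14 to 0.13 (miR-219a-2-3p, cerebellum), -0.16 to 0.34 (miR-219a-2-3p, cortex), -1.19 to -0.36 (miR-338-3p, striatum/thalamus), -0.79 to -0.16 (miR-338-5p, striatum/thalamus), and 0 to 2 members called in the striatum/thalamus. For the striatum/thalamus against the cortex it gave 0.45 to 0.86 (miR-219a-2-3p), 0.17 to 0.48 (miR-338-5p), and 0 to 2 members called. For HIBI ratios it gave -0.12 to 0.30 (miR-219a-2-3p over miR-338-3p, striatum/thalamus), -0.18 to 0.0350, -0.28 to 0.0165, and -0.22 to 0.18 (over miR-338-5p, cerebellum, striatum/thalamus, and cortex), and -0.28 to 0.44 (over miR-219a-1-3p, cortex), and -0.0946 to 0.17 for the last in the cortex against the cerebellum. The cause of these changes was not tested. MiR-338-3p is limited by depth, at 7 to 171 counts a library.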
